A study of Mus musculus with 2 samples.

Results

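The noncoding RNAs described here are those that gave signal in both populations of a mouse B-cell acute lymphoblastic leukaemia sorted by the SoNar sensor. They were chosen by signal: every non-control array probe whose RefSeq accession begins with NR_, the prefix RefSeq gives to transcripts without an annotated protein, and whose processed signal was at least 100 intensity units on both arrays. The rule left 240 probes for 204 accessions, of 1212 NR_ probes for 1075 accessions and 39085 probes of all kinds. Of the 240 probes, 213 matched a gene symbol, for 181 genes, and 27 are named by accession only. The signals that chose the probes also enter the differences below, so all differences are descriptions with no test. The prefix does not mean a long noncoding RNA: 72 of the probes belong to transcribed pseudogenes and 8 to noncoding variants of coding genes.

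The first population was SoNar-high and the second SoNar-low, both from bone marrow of mice labelled 8 weeks of age, and their RNA was hybridised to 1 Cy3 one-colour Agilent array each. SoNar is a genetically encoded sensor that reads the balance of NADH and NAD+ in the cytosol, and the cells were separated by its emission under violet relative to blue excitation. The sample titles call the same samples N-myc-high and N-myc-low. The labels give neither the driver of the leukaemia, nor the strain, nor how many mice contributed. With 1 array per population, scan and population cannot be told apart, and no difference has a replicate check.

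Long noncoding RNAs are made mostly by RNA polymerase II, capped, spliced and polyadenylated like mRNAs, but act as RNA or through the act of their transcription. Some carry small nucleolar RNAs (snoRNAs), which guide the modification of ribosomal RNA, or microRNAs in their introns and exons, and the host transcript then reports on the making of its guests. Others scaffold nuclear bodies, silence chromatin in cis or bind proteins in the cytoplasm, and in leukaemia the host transcript of the miR-17-92 cluster and Pvt1, the neighbour of Myc, are known for their link to MYC proteins. Transcribed pseudogenes also have NR_ accessions. They are copies of coding genes, and a probe for one can bind the transcripts of its parent where their sequences are near identical.

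The miR-17-92 cluster is shown first because its host transcript, Mir17hg, had a SoNar-high minus SoNar-low difference above the median of all probes. The mature microRNAs of the cluster are printed from RefSeq (GRCm38.p6, chromosome 14, plus strand), 5′ to 3′, with the seed, bases 2 to 8, in capitals.
mmu-miR-17-5p: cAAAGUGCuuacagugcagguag
mmu-miR-20a-5p: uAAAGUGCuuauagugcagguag
mmu-miR-18a-5p: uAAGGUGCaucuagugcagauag
mmu-miR-19a-3p: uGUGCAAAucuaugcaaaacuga
mmu-miR-19b-3p: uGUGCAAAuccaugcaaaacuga
mmu-miR-92a-3p: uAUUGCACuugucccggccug
miR-17 and miR-20a share 1 seed, miR-19a and miR-19b share another, and miR-18a and miR-92a each have a seed of their own. The RefSeq record of Mir17hg spans the hairpin of miR-92a and not those of the other microRNAs of the cluster. The array measured the host transcript and none of these mature microRNAs.

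The starts of snoRNA host genes are shown next because these genes are known for a run of C and T at the first transcribed base, the 5′ terminal oligopyrimidine (TOP) tract of mRNAs of the translation machinery. Of the 11 host genes among the members, all had a promoter window in the RefSeq table, which runs from 250 bases before to 50 bases after the annotated start, and 6 had a run of at least 3 C or T from the first base in at least 1 window. Such a run stood in 10.7% of all 32851 windows. That share counts windows and the 6 counts genes, of which 1110038B12Rik and Snhg17 had 2 windows each, with a run in 1 of them. Below, 20 bases before and 30 bases after the start are given on the strand of the gene (GRCm38.p6), with the run in capitals.
Snhg12, chr4:132308658-132308707, plus strand: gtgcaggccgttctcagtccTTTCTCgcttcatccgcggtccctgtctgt
Snhg17, chr2:158361480-158361529, minus strand: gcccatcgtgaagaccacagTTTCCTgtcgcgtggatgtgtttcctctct
1110038B12Rik, chr17:34952439-34952488, minus strand: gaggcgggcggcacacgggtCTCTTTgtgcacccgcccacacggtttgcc
Snhg7, chr2:26640215-26640264, minus strand: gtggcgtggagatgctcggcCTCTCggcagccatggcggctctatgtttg
2410006H16Rik, chr11:62602857-62602906, plus strand: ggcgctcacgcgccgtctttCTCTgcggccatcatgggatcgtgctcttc
Snhg1, chr19:8723467-8723516, plus strand: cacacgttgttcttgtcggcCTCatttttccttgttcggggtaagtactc
A run is a match of letters at the annotated start, which can differ from the start used in these cells.

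Across the 240 probes the SoNar-high minus SoNar-low difference was spread around a median of 0.05 on the log2 scale, with quartiles of -0.51 and 0.47 and a range of -2.62 to 1.18. Each value is the log2 signal minus the 75th percentile of its own array, which lay at 409 units on the SoNar-high and 470.2 units on the SoNar-low array. The difference was above 0 for 125 probes (52.1%) and below 0 for 115. Above 0 were 66.3% of all 14347 probes at or above 100 units on both arrays and 71.2% of the 11239 mRNA (NM_) probes among them. The median of all probes at this signal was 0.23, and that of the NM_ probes 0.29. The noncoding members were centred below all probes, with a gap of -0.17 between the medians. The gap narrowed to -0.10 with quantile normalization, with loess on the level and in the series matrix values, and to -0.07 with pseudogenes left out of both sets.

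At a size of 2-fold, 5 noncoding probes were higher and 21 lower on the SoNar-high array. Those were 2.08% and 8.75% of the noncoding probes, and over all 14347 probes at this signal 1.98% passed 2-fold upwards and 5.5% downwards. Among NM_ probes the shares were 2.14% and 3.41%, and among the 2868 probes with neither prefix they were 1.32% and 13.4%. Of the 26 noncoding probes past 2-fold, 19.2% were higher. This split depended on the scaling. Scaling to the median of all probes added 0.57 to every difference and gave 66 higher and 8 lower (89.2% higher). A 75th percentile taken only over probes that the scanner software called well above background in both populations shifted every difference by -0.30 and gave 0 higher and 39 lower (0% higher), and centring on the median of all probes at this signal, an alternative chosen after seeing the data, gave 0 and 36 (0% higher). The sign of a difference between -0.57 and 0.30 thus turns with the scaling. In bulk RNA, fewer cells of a type and less RNA per cell cannot be told apart.

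**Figure D1:**
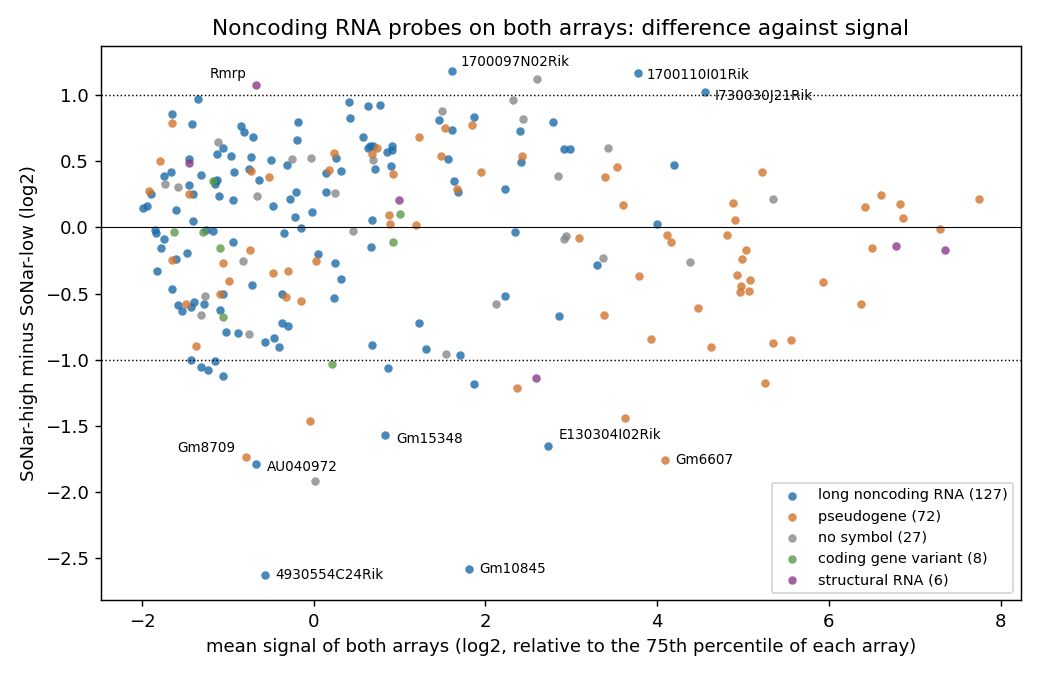
Each point is 1 of the 240 noncoding RNA probes, with the mean log2 signal of both arrays relative to their 75th percentiles on the x axis and the SoNar-high minus SoNar-low difference (log2) on the y axis; colours give the class, and dotted lines mark 2-fold. The 5 probes above the upper line reach 1.18, the 21 below the lower line reach -2.62, and pseudogenes make up most probes at the right end.

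The prefix covers several kinds of RNA, which did not lie at the same difference. Long noncoding RNAs were 127 probes of 117 genes with a median of 0.20, of which 3 passed 2-fold upwards and 12 downwards. Transcribed pseudogenes were 72 probes of 51 genes with a median of -0.09, with 0 higher and 6 lower. The 27 probes without a symbol had a median of 0.23 with 1 higher and 1 lower. What kind of RNA they read was not looked up, so some may belong to the other classes. The 8 probes for noncoding variants of 7 coding genes had a median of -0.07 with 0 higher and 1 lower. The 6 structural RNAs with a symbol had a median of 0.03 with 1 and 1. Besides Rmrp, Rnu12, Rn28s1 and Rn4.5s, given below, these were Rnu3b1, a U3 small nucleolar RNA (0.48), and Rnu1b6, a U1 small nuclear RNA of the spliceosome (0.21). Scaling to the median puts all these medians above 0, and the percentile over detected probes alone puts each of them below 0.

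How bright a probe was went with its difference. Among NM_ probes the median difference was -0.01 where the dimmer array read 100 to 200 units, 0.16 at 200 to 400, 0.32 at 400 to 1600 and 0.41 at 1600 units and more. Long noncoding RNAs had medians of -0.04 (45 probes), 0.22 (29), 0.42 (40) and 0.49 (13) in the same classes, each within 0.1 of the NM_ value. Pseudogenes had medians of -0.27 (11), -0.33 (9), 0.44 (15) and -0.17 (37). The difference between pseudogenes and NM_ probes was thus widest among the brightest, where the pseudogene quartiles were -0.58 and 0.15. In that class Gm15772, annotated as a copy of the ribosomal protein gene Rpl26, lay at 0.25. Hmgb1-rs17, related to the chromatin protein gene Hmgb1, lay at 0.15. At the low end of the class were Gm6607 (-1.76) and 1 probe of Gm5766 (-1.18).

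**Figure D2:**
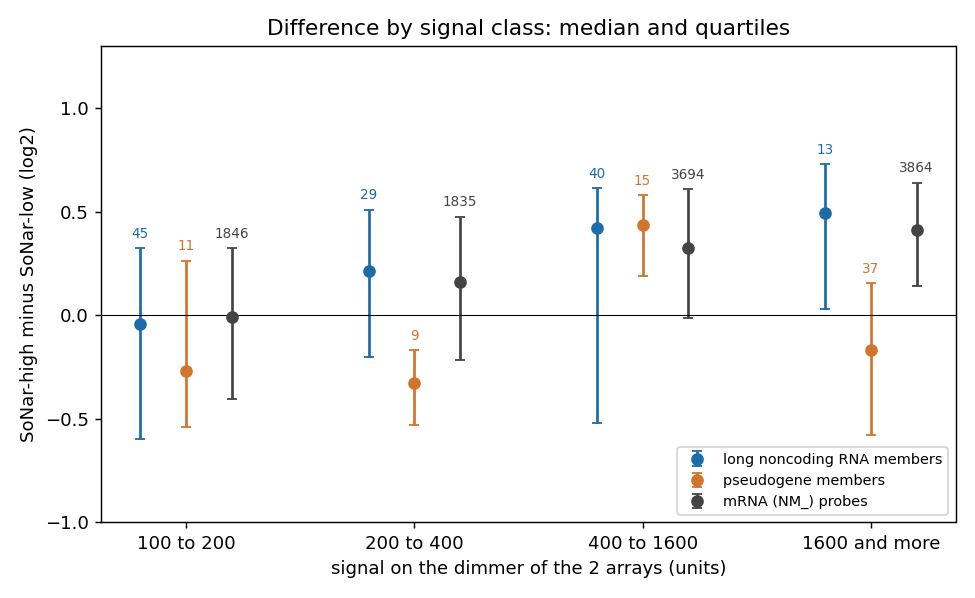
Medians (points) and quartiles (bars) of the SoNar-high minus SoNar-low difference (log2) in 4 classes of signal on the dimmer array, for long noncoding RNA members, pseudogene members and NM_ probes, with the number of probes above each bar. Long noncoding RNAs and NM_ probes both lie higher in brighter classes, at 0.49 and 0.41 in the brightest, while pseudogenes there lie at -0.17.

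The long noncoding RNAs furthest above on the SoNar-high array have names that give no function. 1700097N02Rik (NR_045287, chromosome 17) gave 1880.2 units in SoNar-high cells and 955 units in SoNar-low cells, a difference of 1.18 or 2.26-fold. 1700110I01Rik (NR_038059, chromosome 14) gave 8388 units in SoNar-high and 4310.1 units in SoNar-low cells (1.16). I730030J21Rik (NR_045781, chromosome 15) gave 13736 units in SoNar-high and 7792 units in SoNar-low cells (1.02). All 3 stood well above background in both populations, as did all 240 members. The promoter window of I730030J21Rik holds a full cAMP response element, TGACGTCA, which begins 119 bases before the start. It is 1 of 2 such matches among the members, and the other lies in the window of Alg13, whose NR_ probe lay at 0.35. The bases around the first are printed because its RNA passed 2-fold, with the element in capitals.
I730030J21Rik, chr15:100732829-100732876, minus strand, GRCm38.p6: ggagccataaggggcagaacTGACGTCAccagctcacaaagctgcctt
Among the 113 promoter windows of the 100 member genes that the table holds, 1.77% had this element (both strands), against 1.79% of all windows. The E-box CACGTG, the letters that MYC and MAX dimers are known to bind, stood in 13 member windows (11.5%), against 7.15% of all windows, and in 0 windows of the snoRNA hosts.

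The other named probe past 2-fold on this side was that of Rmrp (NR_001460, chromosome 4), the RNA of the endoribonuclease RNase MRP, which processes ribosomal RNA precursors. It gave 372 units in SoNar-high and 204 units in SoNar-low cells, a difference of 1.07. The accession NR_015528, which has no symbol in the table used, gave 3645 units in SoNar-high and 1933 units in SoNar-low cells (1.12). Just under 2-fold lay 0610009L18Rik (0.97), NR_024619 (0.96), 1 of the 2 probes of Pvt1 (0.94), Dancr (0.93), 1810062O18Rik (0.91), NR_002840 (0.88) and 2810001G20Rik (0.86). With centring on the median of all probes, each of these 12 remains above 0, as a shift of -0.23 must leave values of 0.86 and more.

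The largest differences were on the other side. 4930554C24Rik (NR_040739, chromosome 9) gave 111 units in SoNar-high cells and 787 units in SoNar-low cells, a difference of -2.62 or 6.17-fold. Gm10845 (NR_033535, chromosome 14) gave 584 units in SoNar-high and 4019 units in SoNar-low cells at 1 probe (-2.58), while its other probes lay at -0.29 and 0.03. AU040972 (NR_045305, chromosome 11) gave 138 units in SoNar-high and 548 units in SoNar-low cells (-1.79). AU040972 overlaps Nf1, the gene of the RAS-inactivating neurofibromin, whose own difference was -0.94. E130304I02Rik (NR_033567, chromosome 7) gave 1528 units in SoNar-high and 5532 units in SoNar-low cells (-1.65), and Gm15348 gave 423 units in SoNar-high and 1445 units in SoNar-low cells (-1.57). E130304I02Rik overlaps Zfp507, a zinc finger gene, which lay at 0.43. Gm11961 lay at -1.18, with 989 units in SoNar-high and 2579.6 units in SoNar-low cells, and the accession NR_003280, with no symbol, at -1.92.

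Pseudogenes filled the rest of the low end. Gm6607 (NR_033622, chromosome 9) gave 3786 units in SoNar-high cells and 14724 units in SoNar-low cells, a difference of -1.76. Gm8709 lay at -1.73 at its dimmest probe, Gm6981 at -1.46 and -1.44 at 2 of its 5 probes, Gm5801 at -1.22 and Gm5766 at -1.18 at 1 of 2. Whether these probes read the pseudogene or its parent mRNA is uncertain, because the sequences of the probes were not used here.

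Most of the remaining members past 2-fold on this side were dim in SoNar-high cells. 1700027J07Rik (-1.12), Pitpnm2os1 (-1.08), 6330415B21Rik (-1.05), Dlx6os2 (-1.01) and Zim3 (-1.003) read between 108 and 133 units in SoNar-high cells and between 248 and 335 units in SoNar-low cells. Those values sit close to the threshold of the rule. Rnu12, the U12 RNA of the minor spliceosome, was brighter and gave 1660.1 units in SoNar-high and 4189.7 units in SoNar-low cells (-1.13). Probes of Norad (-1.06) and Prmt6 (-1.03), described below with the other probes of these genes, completed the 21.

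Of the 26 probes past 2-fold, all kept their direction under 7 other ways of making the values. Scaling to the median and the percentile over detected probes, which shift every difference by 0.57 and -0.30, could not have turned any of them. Keeping outlier spots was hardly a check of direction either. It took 1700097N02Rik from 1.179 to 1.176 and the low probe of Gm10845 from -2.582 to -2.586. Of the 5 higher probes 0, and of the 21 lower probes 8, also stayed past 2-fold under all 7. The 8 were 4930554C24Rik, the low probe of Gm10845, NR_003280, AU040972, Gm6607, the low probe of Gm8709, E130304I02Rik and Gm15348, whose differences spanned -2.92 to -1.005 over these settings.

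snoRNA host genes lay on both sides of 0. Only probes with a gene symbol could be counted as hosts. Their 12 probes, of 11 genes, had a median of 0.49, against 0.23 for all probes at this signal, and 0 passed 2-fold in either direction. Above 0 lay 7 of the 12 (58.3%), against 66.3% of all probes, and the same number lay above the median of all probes. Dancr, which hosts Snora26, gave 959 units in SoNar-high and 581 units in SoNar-low cells (0.93). Snhg12, which hosts Snora16a, Snora44, Snora61 and Snord99, gave 814 units in SoNar-high and 613 units in SoNar-low cells (0.61). Snhg10, which hosts the Cajal body guide RNA Scarna13, lay at 0.61 as well, with 951 units in SoNar-high and 715 units in SoNar-low cells. These 3 hosts read brighter in SoNar-high cells before any scaling, too.

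Snhg16 was measured at 2 probes that differ in brightness and gave nearly the same difference. They read 3769 and 944 units in SoNar-high cells, against 2883 and 726 units in SoNar-low cells, which is 0.59 and 0.58. Snhg3, host of Snora73a and Snora73b, lay at 0.52 and Snhg1, which holds 8 annotated snoRNAs, at 0.47. On the other side were Snhg5, with 247 units in SoNar-high and 469 units in SoNar-low cells (-0.73), 1110038B12Rik (-0.51), Snhg7 (-0.39), Snhg17 (-0.15) and 2410006H16Rik (-0.04). Of these, Snhg17 and 2410006H16Rik turn above 0 when arrays are scaled to the median, as do 1110038B12Rik and Snhg7. The 6 hosts with a run of C and T at the start, printed above, spanned -0.51 to 0.61, and the 5 hosts without one spanned -0.73 to 0.93, so the ranges overlapped throughout.

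**Figure D3:**
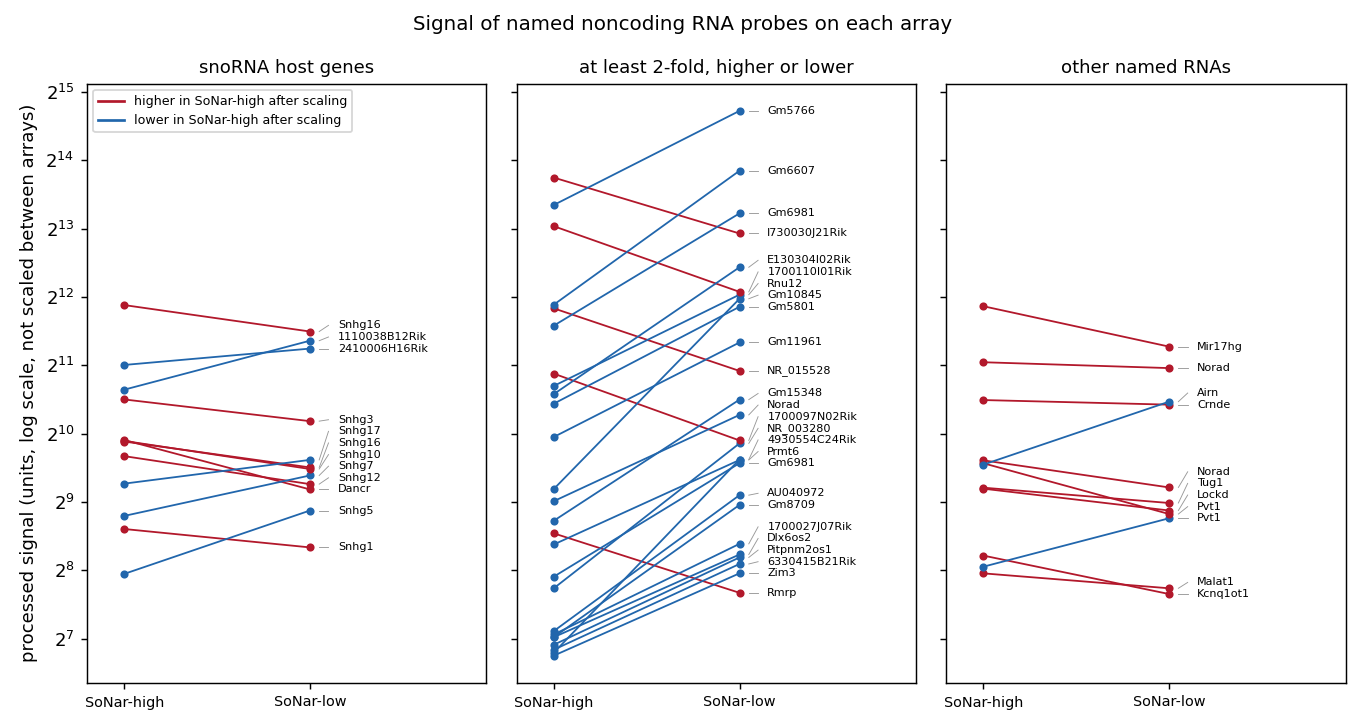
Processed signal in units (log scale, not scaled between arrays) of named noncoding RNA probes in SoNar-high cells (left point) and SoNar-low cells (right point), 1 line per probe, for snoRNA hosts, members past 2-fold and other named RNAs; red lines are above 0 and blue lines below 0 after scaling. Of the 12 host lines 7 are red, though scaling to the median turns 4 of the 5 blue ones, and 21 of 26 lines past 2-fold are blue.

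Mir17hg, the host transcript of the microRNAs printed above, gave 3725 units in SoNar-high cells and 2473 units in SoNar-low cells, a difference of 0.79 or 1.73-fold. Scaling to the median puts it past 2-fold, at 1.36. By position in the gene table, 2 other member genes hold an annotated microRNA, E130112N10Rik with Mir8113 (0.54) and Snhg10 with Mir3069 (0.61). Mirt1, a transcript named for myocardial infarction that holds no annotated microRNA, lay at -0.02. Pvt1, a long RNA beside Myc, had 2 probes that went apart, with 758 and 265 units in SoNar-high cells, against 453 and 434 units in SoNar-low cells, or 0.94 and -0.51.

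Of RNAs linked to growth and p53, 7 probes of 6 genes reached the threshold, with a median of 0.52, and 6 of 7 lay above 0, as did 66.3% of all probes at this signal. Besides Dancr, Mir17hg and Pvt1 they were Lockd, transcribed beside the cell cycle inhibitor gene Cdkn1b (0.52), Tug1 (0.43) and Crnde (0.27). Cdkn1b itself lay at 0.70. Tug1, a long RNA with nuclear and cytoplasmic roles, was printed as 10 spots and gave 591 units in SoNar-high and 506 units in SoNar-low cells, a difference of 0.43 ± 0.03 (SE over 10 spots of each array). That error covers spots on the slide and not sorts, animals or other probes. Other probes of Tug1, under the threshold on at least 1 array, lay at 0.38 and -0.12. The 2 other members with 9 or more spots, Gm1943 and 9330151L19Rik, lay at 0.43 ± 0.04 and 0.35 ± 0.05.

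Of 8 genes in a list of X inactivation and nuclear RNAs, 3 were members, Malat1, Kcnq1ot1 and Norad, none of them known for X inactivation. Malat1, a highly expressed RNA of nuclear speckles in many cell types, gave 248 units in SoNar-high cells and 213 units in SoNar-low cells (0.42). Kcnq1ot1, which silences an imprinted cluster in cis, gave 297 units in SoNar-high and 201 units in SoNar-low cells at its member probe (0.76). Its other probe read 75.1 units in SoNar-low cells and was not well above background in SoNar-high cells. Norad, a cytoplasmic RNA that binds Pumilio proteins, had 3 member probes at 0.60, 0.29 and -1.06. In the last case the probe read 516 units in SoNar-high and 1237 units in SoNar-low cells.

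Of 3 imprinted RNAs among the members, Kcnq1ot1 lay above 0 and Airn and Zim3 below. Airn, the antisense RNA that silences Igf2r in cis, gave 748 units in SoNar-high cells and 1415 units in SoNar-low cells (-0.72), and Zim3 lay at -1.003. Igf2r itself lay at -0.01. Another probe of Airn read 67.6 units in SoNar-high and 66.4 units in SoNar-low cells, which is 0.23, so the probes of Airn lay on both sides of 0. Among 7 probes of blood and immune RNAs the median was 0.39, with 4 above 0 and 3 below, and AI662270, a member not named so far, lay at 0.39.

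Several well-known RNAs were not among the members. Xist, the RNA of the inactive X chromosome, was not well above background at either of its 2 probes in either population. None of the 3 probes of Meg3, a maternally expressed imprinted RNA, was well above background in SoNar-high cells. Neat1, the scaffold of paraspeckles, read 142 units in SoNar-low cells and was not well above background in SoNar-high cells, and Terc, the template RNA of telomerase, read 163 units in SoNar-low cells and was likewise not well above background in SoNar-high cells. No probe matched Gas5 or H19 by symbol. The member accessions without a symbol were not identified, so either RNA could still be among the members. None of 9 brain-enriched noncoding RNA genes reached the threshold on both arrays, so 0 were members.

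Probes that reached the threshold on 1 array alone did so mostly on the SoNar-low array, among noncoding probes as among all probes. Of the 1212 NR_ probes, 3 reached 100 units on the SoNar-high array alone and 66 on the SoNar-low array alone, and 903 on neither. The first 2 counts were 0.248% and 5.45% of NR_ probes, against 0.594% and 5.56% of all 39085 probes. Detection was uneven too, with 319 NR_ probes well above background in both populations, 0 in SoNar-high cells alone, 420 in SoNar-low cells alone (34.7%, against 28.7% of all probes) and 473 in neither. The share of all non-control spots so called was 44.8% in SoNar-high and 72.9% in SoNar-low cells, and the lowest signal so called was 46.4 units in SoNar-high and 19.7 units in SoNar-low cells. The part of this unequal background in the differences of dim members was not tested.

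Of the probes above the threshold in SoNar-low cells alone that differed most, Mospd4 read 224 units, 1110020A21Rik 205 units and Gm5478 207 units, and all 3 were not well above background in SoNar-high cells. Gm5039 read 79.3 units in SoNar-high and 568 units in SoNar-low cells. Above the threshold in SoNar-high cells alone were Fam219aos (105 units, against 76.1 units in SoNar-low cells), 2610306M01Rik (106 units, against 96.1 units) and 1 more probe of Tug1 (102 units, against 90.3 units). Just inside the rule lay 4930474N09Rik, with 103 units in SoNar-high and 149 units in SoNar-low cells, Zim3 and 1700034P13Rik. Just outside lay 1810019D21Rik, with 98.7 units in SoNar-high and 116 units in SoNar-low cells, D130020L05Rik and 2610306M01Rik.

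The brightest members were pseudogenes and structural RNAs, though signals of different probes do not rank the abundance of their RNAs. Gm12070 gave 94519 units in SoNar-high cells and 93649.8 units in SoNar-low cells at its brightest probe (0.21), and Rn28s1, the 28S ribosomal RNA, gave 62737 units in SoNar-high and 81281 units in SoNar-low cells (-0.17). Gm5523 (-0.01), Gm6548 (0.07), Gm8580 (0.17), Rn4.5s (-0.14), Gm15772 (0.25), Gm5766 (-0.16), Hmgb1-rs17 (0.15) and a second probe of Gm6548 (-0.58) completed the 10 brightest. None of the 10 differed by 2-fold.

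Probes of 1 gene differed among themselves by more than spots of 1 probe. Among 148 probes with at least 9 spots at this signal the median SD between spots was 0.13 in SoNar-high and 0.06 in SoNar-low cells, which gives 0.14 for a difference of 1 spot on each. The 25 member genes with several member probes had a median SD of 0.43 between the differences of their probes, and 1917 genes with several NM_ probes had 0.30. For 8 of the 25 member genes (32%) the probes spanned at least 2-fold, against 14.8% of the NM_ genes. For 10 of the 25 (40%) the probes lay on both sides of 0, against 44.1% of the NM_ genes, and Gm10845, Gm8709, Norad, Pvt1, Gm5069 and Gm12070 did so across at least 2-fold.

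Agreement was close for other genes. The 3 probes of Gm10653 lay between -0.41 and -0.36, the 2 of Gm1943 at 0.43 and 0.38, and the 2 of 1500009C09Rik at 0.60 and 0.44. Gm6981 had 5 probes, which lay at -0.11, -0.27, -0.37, -1.44 and -1.46. The probe with -0.11 read 7037 units in SoNar-high and 8720.3 units in SoNar-low cells, and that with -1.44 read 3060.1 units in SoNar-high and 9557 units in SoNar-low cells. One accession can thus carry either value, and a difference from a gene with 1 probe has no such check.

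**Figure D4:**
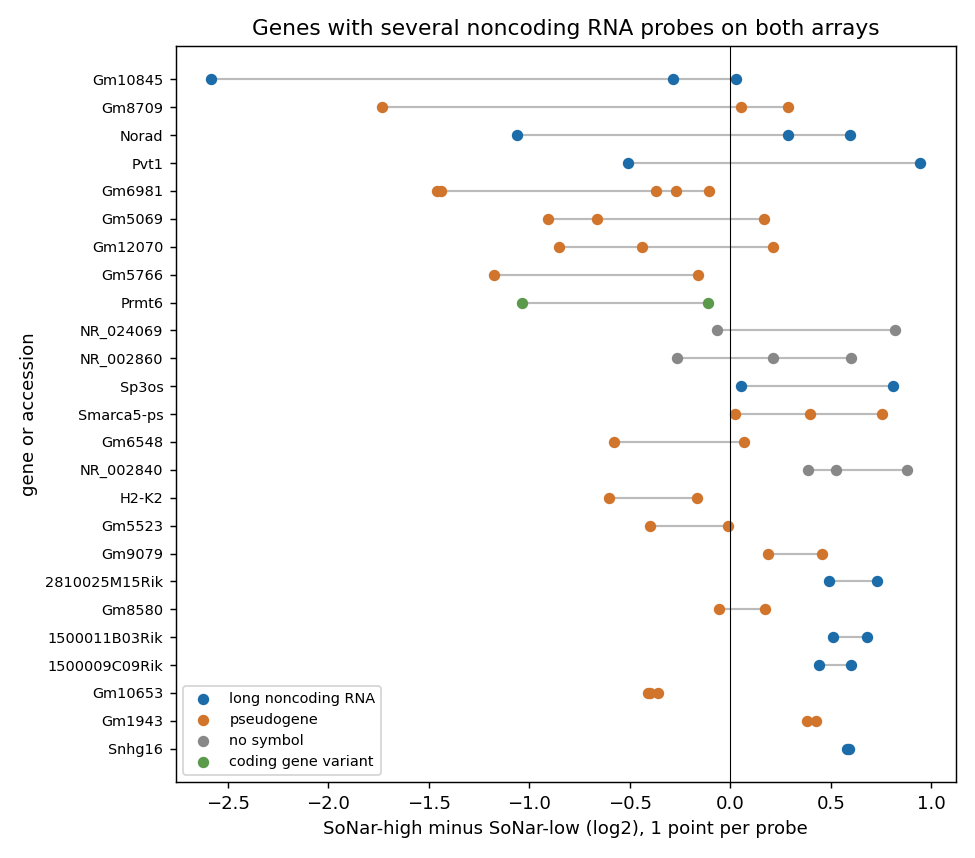
SoNar-high minus SoNar-low difference (log2, x axis) of each probe of the 25 genes or accessions with several member probes (rows, ordered by range), coloured by class, with a grey line from the lowest to the highest probe. The range runs from 2.61 for Gm10845 to 0.01 for Snhg16, and 10 of the 25 lines cross 0.

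Some pseudogenes could be set beside a coding gene that shared their symbol stem or was named among their synonyms. H2-K2, a class I histocompatibility pseudogene, lay at -0.61 and -0.17, while the 2 probes of H2-K1, matched by synonym, lay at 0.87 and 0.62. H2-K2 gave 7397 and 12665 units in SoNar-high cells, against 12946 and 16363 units in SoNar-low cells, so both probes went the other way from the expressed gene, although scaling to the median puts the second above 0. Smarca5-ps lay at 0.75, 0.40 and 0.02, and Smarca5, a chromatin remodelling ATPase gene, at 0.74. Selenok-ps1 lay at 0.42 and Selenok at 1.04 and 0.90. Tyms-ps lay at -0.51 and Tyms, the thymidylate synthase gene, at -0.80. Rps15a-ps6 lay at -0.56 and its parent, a ribosomal protein gene, at -0.60, -0.17 and -0.21.

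Antisense RNAs did not all share the side of the gene they overlap. Sp3os gave 0.81 and 0.05 at its probes, and Sp3, a transcription factor gene, lay at 1.03. Rab10os lay at 0.41 and Rab10, a vesicle trafficking GTPase gene, at 0.31 and 0.78. On the other hand Pitpnm2os1 lay at -1.08 and Pitpnm2 at 0.66. Mccc1os, at -0.51, overlaps 2 coding genes that lay apart, Ccdc144b at -0.69 and Mccc1, a subunit gene of a leucine-degrading carboxylase, at 0.38 and 0.52. Scaling to the median puts Mccc1os above 0. The strand that each probe reads was not checked, so an antisense probe and its partner cannot be fully told apart.

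Noncoding variants of coding genes also could be set beside a coding probe. The NR_ probes of Prmt6, an arginine methyltransferase gene, lay at -1.03 and -0.11, and its NM_ probe at 0.72. The first gave 332 units in SoNar-high and 783 units in SoNar-low cells, and the NM_ probe 643 units in SoNar-high and 450.1 units in SoNar-low cells, so the probes of this gene pointed to opposite sides. For Zfp207 the values were -0.68 at the NR_ probe and 0.08 at the NM_ probe. Bcor, a transcriptional corepressor gene, showed little of this, with -0.03 and 0.03.

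Across 63 long noncoding RNAs with a coding gene of this signal overlapping or within 10 kb in the gene table, the 2 differences correlated with Pearson's r = 0.23 and Spearman's rho = 0.21 across genes, which are not independent replicates and share both arrays. In 42 of the 63 pairs the signs were alike, where the medians were 0.32 for the noncoding RNAs and 0.37 for their neighbours, both above 0 by the scaling. The share of like signs that such medians alone would give was not computed, so the count is no result about neighbours. Of coding genes equally near, the first by symbol was taken. Mccc1os (-0.51) was thus paired with Ccdc144b (-0.69) and not with Mccc1, which it also overlaps. Gdap10 (0.74) and the overlapping Nampt, which makes a precursor of NAD+ (0.95), were a pair with like values. Gt(ROSA)26Sor (0.82) and Thumpd3 (0.75) were another, and 1810062O18Rik (0.91) and Ppp3cb, a calcineurin catalytic subunit gene (-0.72), were a pair with opposite ones.

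Markers of other cell types differed between the arrays as well. Of 12 probes for B-lineage genes, 8 were at the threshold on both arrays, and the summed signal of all 12, in multiples of each array's 75th percentile, was 77.2 in SoNar-high and 65.6 in SoNar-low cells. Both probes of Rag1 and the probe of Igll1 were not well above background in either population. The 7 neutrophil probes summed to 43.7 in SoNar-high and 51.1 in SoNar-low cells, and all were at the threshold. Probes of T and NK cell genes (8) summed to 2.23 in SoNar-high and 5.04 in SoNar-low cells, those of monocytes and macrophages (7) to 1.35 in SoNar-high and 2.08 in SoNar-low cells, and those of erythroid cells (3) to 0.361 in SoNar-high and 1.14 in SoNar-low cells. The 14 brain probes summed to 5.04 in SoNar-high and 4.66 in SoNar-low cells, but went both ways. Snap25, the brightest in SoNar-low cells, read 555 units in SoNar-high and 1308 units in SoNar-low cells (-1.04). Rtn1 read 209 units in SoNar-high and 31.5 units in SoNar-low cells (2.93), and Syt1 read 118 units in SoNar-high cells and was not well above background in SoNar-low cells. Of 6 lung probes, 0 were well above background in SoNar-high and 6 in SoNar-low cells, with sums of 0.303 in SoNar-high and 3.31 in SoNar-low cells. The part of these cell types or tissues in the noncoding RNA differences was not tested.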

How the data were processed

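Total RNA of each sorted population was labelled with Cy3 by a Quick Amp kit and hybridised to 1 array, per the labels' protocols. Such kits prime from poly(A) tails, so RNAs without a tail may be poorly represented. The deposited scanner files give the processed signal, a background-subtracted intensity per spot, extracted with Agilent Feature Extraction 11.0.1.1 per the file headers (9.1 per the submitters' processing notes). The authors' series matrix, as deposited, is on a log2 scale with a median of 5.90 on each array, ranks like the scanner signals (Spearman's rho 1.00 on each) and an unstated centring. It was an alternative.

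Control spots and spots flagged as outliers (190 and 506 on the SoNar-high and SoNar-low arrays) were left out, replicate spots were averaged as log2, and each array was scaled to its 75th percentile. A call was a difference of at least 2-fold, with no p-value. Accessions were matched to symbols of a RefSeq table (GRCm38.p6), used for names, gene types and neighbours. An accession without a symbol there could not enter a list or a class of RNA, and its identity was not looked up. Pseudogenes were taken by gene type or a symbol ending in -ps. Sequences are RefSeq's. The motifs searched were TGACGTCA and CACGTG, both palindromes, neither of which contains the other, and a run of C or T from the first base.

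The members and all lists were chosen with earlier results of these data known. Named were the 12 highest, 12 lowest and 10 brightest probes, members of lists of noncoding RNAs, the 3 probes on each side of the threshold, genes whose probes disagree in sign by 2-fold, and a fixed set of well-known RNAs; members past 2-fold beyond these, and the partners, neighbours and microRNA hosts found by position, were chosen after their values were seen. The steps were tested on simulated data. Normexp correction (offset 50, on the median spot signal) came from limma 3.58.1 in R 4.3.3, and the rest from Python 3.11.15, with matplotlib 3.10.9, statsmodels 0.14.6, pandas 2.3.3 and numpy 2.4.6. The number of arrays limits the precision.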

Additional observations from a re-analysis of the deposited data

How the results depend on the processing

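Counts are given as at least 2-fold higher and lower on the SoNar-high array (5 and 21 as reported, median difference 0.05). Scaling to the median gave 66 and 8 with a median of 0.62, and a 75th percentile over detected probes alone 0 and 39 with -0.24. Centring on all probes at the threshold, chosen after seeing the data, gave 0 and 36 with -0.17. These shift every probe alike. The gap between the medians of members and of all probes (-0.17 as reported) was -0.10 under quantile normalization, loess and the series matrix and -0.11 under normexp. With the same choice made for all probes it was -0.12 and -0.20 at thresholds of 200 and 50 units, -0.14 for the brightest probe per gene and -0.07 without pseudogenes. Loess on the level and normexp each gave 3 higher, and a threshold of 200 or 50 units gave 13 or 34 lower. A call size of 1.5-fold gave 40 and 48, and of 3-fold 0 and 7. In the other settings run (quantile normalization, outlier spots kept, series matrix, well above background required, brightest probe per gene, pseudogenes left out) the counts stayed within 1.5 times. No called member changed direction, and the settings that shift every probe alike could not have changed one. For named members 174 values moved by less than the spot error of 0.14 and 246 by more, and for list medians 18 and 17. Scaling to the median and the percentile over detected probes shift every value by 0.57 and -0.30. All values under these settings therefore had to move by more than the spot error. Keeping outlier spots shifted the median of all probes by only -0.003. The cause of the other moves was not tested. No paired analysis was possible because each population has 1 array, and for the same reason no replicate could be left out. The lowest signal called well above background was 46.4 units in SoNar-high and 19.7 units in SoNar-low cells, both under the threshold of 100 units.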
